A study of Sus scrofa with 36 samples.

Results

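The cytosolic ribosomal protein genes encode the protein part of the ribosome that translates nuclear messages. They were chosen by symbol alone, as genes named RPL, RPS or RPLP followed by their number, with RPSA, and without the RPS6 kinases and the mitochondrial ribosomal proteins. The rule found 62 genes among the 6360 that had a probe set with a single gene symbol, 37 of the large and 25 of the small subunit. They lie on 16 chromosomes, so they do not form a cluster on the genome. Each gene is given by its brightest probe set, the one with the highest mean over the 36 arrays.

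A ribosome holds 1 copy of nearly every one of these proteins, bound to the ribosomal RNAs, and the stalk proteins RPLP0, RPLP1 and RPLP2 recruit the elongation factors. Most messages of this family start with a terminal oligopyrimidine tract, through which growth signals and mTORC1 control their translation more than their amount. RNA arrays measure the amount of message and not its translation. In the mammary gland estrogen drives growth of the ducts, progesterone side branching, and prolactin the growth of alveoli and milk synthesis, all of which call for protein synthesis.

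RNA from the mammary gland of 36 female Yucatan miniature pigs, 5 months old, was measured on 1 array each. The pigs formed 9 groups of 4. Sham animals kept their ovaries and had saline for 13 days. All other animals were ovariectomized and had bromocriptine, a dopamine agonist that lowers prolactin, for 8 days. For 5 further days they had bromocriptine alone (group B), with estrogen (BE), with progesterone (BP) or with both (BEP), or else haloperidol, a dopamine antagonist that raises prolactin, alone (H), with estrogen (HE), with progesterone (HP) or with both (HEP). All animals were given BrdU, a label of dividing cells, 24 hours before death. Doses were not used here. Every group without ovaries had therefore also been through bromocriptine, and B against sham joins loss of the ovaries with bromocriptine. The series asks how these hormones interact in mammary proliferation and gene expression. Values are deposited RMA values read as log2, so a difference of 1 is a doubling. Changes are differences of group means ± SE from limma, n = 4 animals per group. A gene was called when its Benjamini-Hochberg adjusted p, over the whole table of 20792 probe sets, was under 0.05. The average effect of estrogen, progesterone or haloperidol is the mean of the 4 groups with it minus that of the 4 matching groups without it. For haloperidol those 4 groups had bromocriptine over the same 5 days. Its effect thus joins haloperidol with the end of bromocriptine, which cannot be told apart.

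Some arrays stood apart, and their values stand here once. The mean level of 13 luminal epithelial markers, which define the gland's epithelium, was between 9.00 and 11.04 on all arrays, above the array medians of 7.83 to 7.91. The mean level of 15 skeletal muscle markers was 12.83 on array B A, 11.23 on H C, 9.56 on HP C and 8.95 on HP A, against 5.65 to 6.42 in the sham animals. Array BP A, labelled as having no estrogen, had a mean of 8.96 over 19 cell cycle genes, whereas the highest values of the groups B, H and HP were 6.89, 6.48 and 7.09. It also had a mean of 12.35 over 7 milk genes and 9.66 over the muscle markers. Array B B had a mean of 11.11 over the milk genes, against 3.91, 4.29 and 5.88 in the other B animals. Milk genes also spread widely in BEP, from 4.72 to 10.37. Array B B was left out only singly. Calls are given without B A and BP A where that ends or adds one.

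The ribosomal protein genes were among the brightest on the array and varied little from group to group. Of the 62 genes, 55 had a mean of at least 12, a level that 293 probe sets (1.41% of all) reached. A further 3, RPL7L1, RPL26L1 and RPS27L, lay between 11.04 and 11.31. The other 4 were under 8, with means of 7.83 for RPL37, 7.06 for RPL26, 6.20 for RPL30 and 5.18 for RPS15A. The highest means were 13.56 for RPS18, 13.41 for RPL38 and 13.37 for RPL19. RPS18 and RPS15A are small subunit proteins and the other named genes are proteins of the large subunit or close relatives of them, except RPS27L, a relative of RPS27. Probe sets differ in how well they bind, so these means order probe sets and not messages.

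The range of the 9 group means had a median of 0.17 over the 62 genes, a fold of 1.13 between the highest and the lowest group. It was 0.31 over the 226 other probe sets with a mean of at least 12 and 0.86 over all probe sets. The range was under 0.5 for 55 of the 62 genes (88.7%), against 14.6% of all probe sets. At a mean of at least 12 the share was 98.2% of the 55 members and 78.8% of those 226. Animals of a group also lay close together, with a median standard deviation of 0.10 for the family, 0.16 for the other bright probe sets and 0.41 for all. The highest value on each array lay between 13.46 and 13.74. Many members sit near that ceiling, where a flat message and a compressed signal cannot be told apart.

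**Figure D1:**
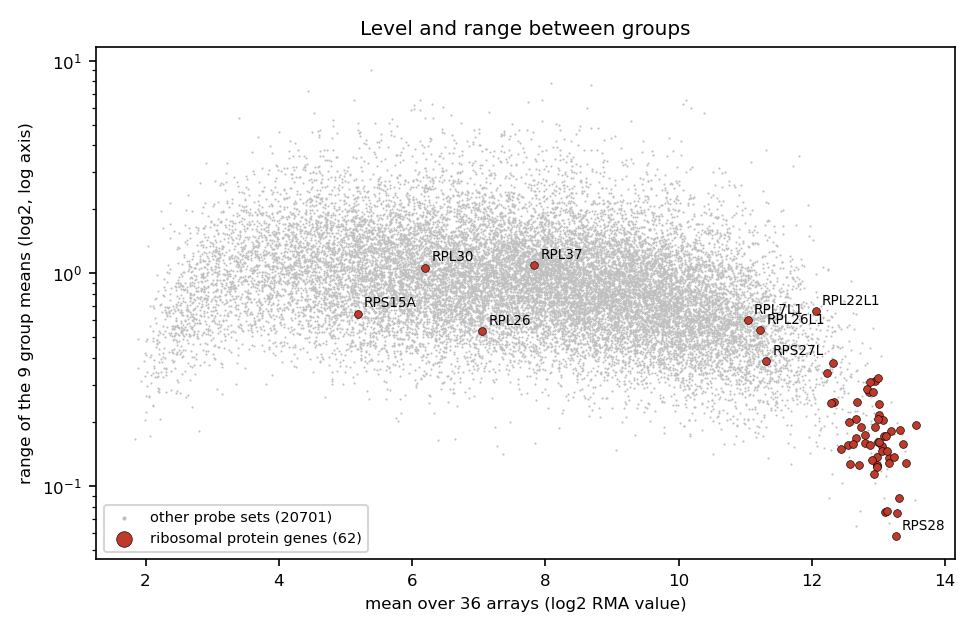
Mean over 36 arrays (log2 RMA value) against the range of the 9 group means (log2, log axis) for the ribosomal protein genes and for all other probe sets. Of the 62 genes, 55 lie at means of 12 and above, with a median range of 0.17 over the family against 0.86 over all probe sets.

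The smallest ranges belonged to RPS28 (0.058), RPS21 (0.074) and RPL13A (0.075). RPS28, a small subunit protein, had group means from 13.23 in BE to 13.29 in B, with standard deviations of 0.032 to 0.096 in the groups. Those of RPS21, also of the small subunit, lay between 13.25 and 13.32. Group means of RPL13A, a large subunit protein, ran from 13.05 in B to 13.13 in BP. For these 3 genes all groups overlapped by the brightest probe set. Another probe set of RPS28, with a mean of 12.09, had a range of 0.67 and was called lower with estrogen.

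The largest ranges were 1.09 for RPL37, 1.06 for RPL30 and 0.66 for RPL22L1. RPL37, a large subunit protein with a dim probe set, had its highest group mean in sham (8.48 ± 0.31, SD, n = 4) and its lowest in HEP (7.39 ± 0.28). Its animals spread widely within BP (8.15 ± 1.12). RPL30, another large subunit protein with a dim probe set, ranged from 5.65 ± 0.72 in H to 6.71 ± 1.00 in HEP. Its standard deviation within a group, 0.69 over the 9 groups, was of the order of that difference. In all 9 groups its highest animal was the one with the letter A in its title, and in 7 the lowest had the letter C. For no other member did 1 letter hold either place in more than 6 groups. The standard deviation above thus includes differences between letters, and with the letter as a replicate block RPL30 was called higher with estrogen. RPL22L1, a bright member, is described with estrogen, where its groups differed beyond their spread.

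Estrogen was the treatment under which ribosomal protein genes were called. In its average effect 4 of the 62 genes (6.45%) rose and 0 fell by limma. An unadjusted p under 0.05 was reached by 7 of the 62 (11.3%), against 44.5% of all probe sets. Over the whole array 17.5% of probe sets were called higher and 17.6% lower, which are shares above those of the family in both directions. Among the 226 other probe sets with a mean of at least 12, 38 (16.8%) were called higher and 18 (7.96%) lower. Of the 55 members above that line 3 (5.45%) were called higher and 0 lower. The median level was 12.37 for those 226 and 12.98 for these 55, so the members lay nearer the ceiling. The 4 genes were RPL26L1, RPL22L1, RPSA and RPLP0, and each rose by less than 1.4-fold. The median change was 0.02 over the family, 0.04 over the other bright probe sets and 0.01 over all probe sets.

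RPL26L1 encodes a close relative of RPL26, a large subunit protein. In the 16 ovariectomized animals without estrogen its values were 10.69 at the lowest, 10.97 at the median and 11.35 at the highest. In the 16 animals with estrogen these were 11.08, 11.45 and 11.73. All 16 animals with estrogen lay above the mean of those without it, and 11 lay above every one of them. The average effect was 0.42 ± 0.08 (adjusted p = 0.0003, limma), a fold of 1.34. Sham animals, at 11.25 ± 0.15 (SD, n = 4), lay between the arms. The gene also rose in HE over H, the single pair of groups in which its values did not overlap.

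RPL22L1 is the relative of RPL22, a large subunit protein. Animals without estrogen ran from 11.34 through a median of 11.89 to 12.39, and those with it from 11.96 through 12.23 to 12.41. The arms overlapped at their upper ends. All 16 animals with estrogen exceeded the mean of those without, 12 of which lay below every animal with estrogen. The average effect was 0.34 ± 0.08 (adjusted p = 0.0021), a fold of 1.27. Values did not overlap between BEP and BP, nor between HE and H. The sham mean was 12.15 ± 0.15, near that of the estrogen arm.

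RPSA, the small subunit protein also known as the laminin receptor, differed less in size but with little scatter. Without estrogen its values were 12.68, 12.91 and 13.04 at the lowest, median and highest, and with estrogen 12.81, 13.08 and 13.19. Of the 16 animals with estrogen 15 were above the mean of those without, and 11 were above all of them. The average effect was 0.17 ± 0.06 (adjusted p = 0.021), a fold of 1.13. Groups did not overlap between HE and H or between HEP and HP. The HEP animals were the tightest, at 13.17 ± 0.027.

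RPLP0, the base of the ribosomal stalk, is a common reference gene in quantitative PCR. Its values were 12.62, 12.82 and 12.93 at the lowest, median and highest without estrogen and 12.86, 12.94 and 13.09 with it. All 16 animals with estrogen lay above the mean of the others and 9 above all of them, and BEP did not overlap BP. The average effect was 0.15 ± 0.05 (adjusted p = 0.0313), a fold of 1.11. Without arrays B A and BP A the change was 0.13 with an adjusted p of 0.0567, and without BE A or without HP C the adjusted p was 0.0519 and 0.0518, so this call rests on single arrays. The lowest group was sham, at 12.71 ± 0.082 with intact ovaries. Of 9 groups the estrogen groups held the 4 highest means.

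**Figure D2:**
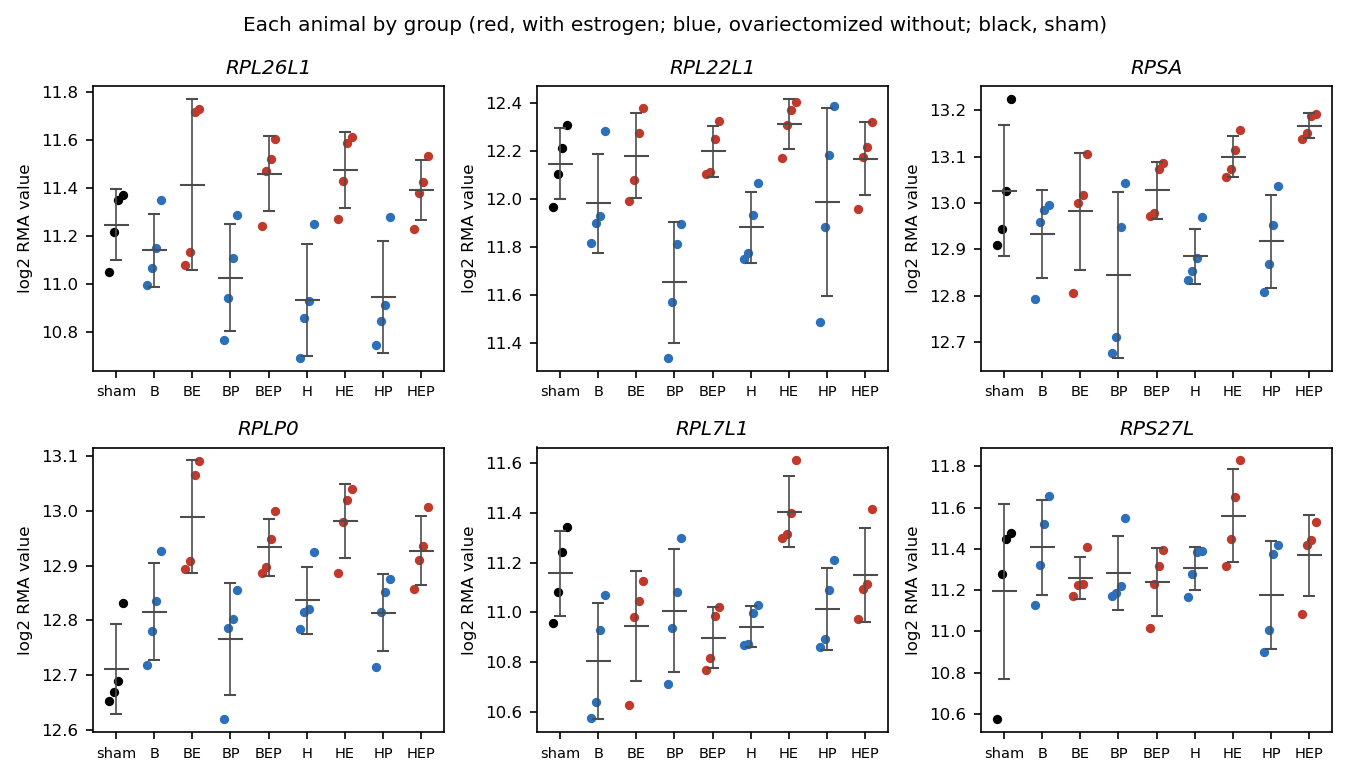
Log2 RMA value of each animal by group for 6 genes, red with estrogen, blue ovariectomized without estrogen, black sham. Estrogen animals of RPL26L1 lie between 11.08 and 11.73 and those without estrogen between 10.69 and 11.35, whereas RPS27L shows no such separation.

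The 95% interval of the estrogen effect lay wholly within a change of 0.5 in either direction for 58 of the 62 genes (93.5%). The share was 41.9% among all probe sets. At a mean of at least 12 it was 98.2% for the 55 members and 90.7% for the 226 other probe sets. Of the 4 exceptions among the 62 genes RPL26L1 and RPL22L1 were called. RPL37 (-0.41 ± 0.18, adjusted p = 0.0723) and RPL30 (0.38 ± 0.23) had dim probe sets with wide intervals. The lowest single value among the 58 members with a mean above 8 was that of RPS15, a small subunit protein named after its values were seen, at -0.14 ± 0.06 (adjusted p = 0.0801). Without arrays B A and BP A estrogen lowered RPS15 and RPL37 past the threshold and raised RPL7L1 past it, while RPLP0 was lost.

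Changes were small in the genes of both subunits. With estrogen 3 of the 37 large subunit genes (8.11%) and 1 of the 25 of the small subunit (4%) rose, and 0 of either fell. Both shares lay below the 17.5% of the array called higher and 17.6% lower. The medians were 0.02 and 0.02. Uncalled members with a mean above 8 had effects from -0.14 for RPS15 to 0.16 for RPL7L1, with standard errors near 0.06. Next to RPS15 lay RPS26 (-0.12 ± 0.06), RPL34 (-0.10 ± 0.06) and RPL31 (-0.10 ± 0.06), and next to RPL7L1 lay RPS9 (0.11 ± 0.07), none of them called and all named after their values were seen. With haloperidol the medians were 0.03 for the large and 0.02 for the small subunit, and in B against sham -0.04 and -0.04. Differences between the subunits were not tested.

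**Figure D3:**
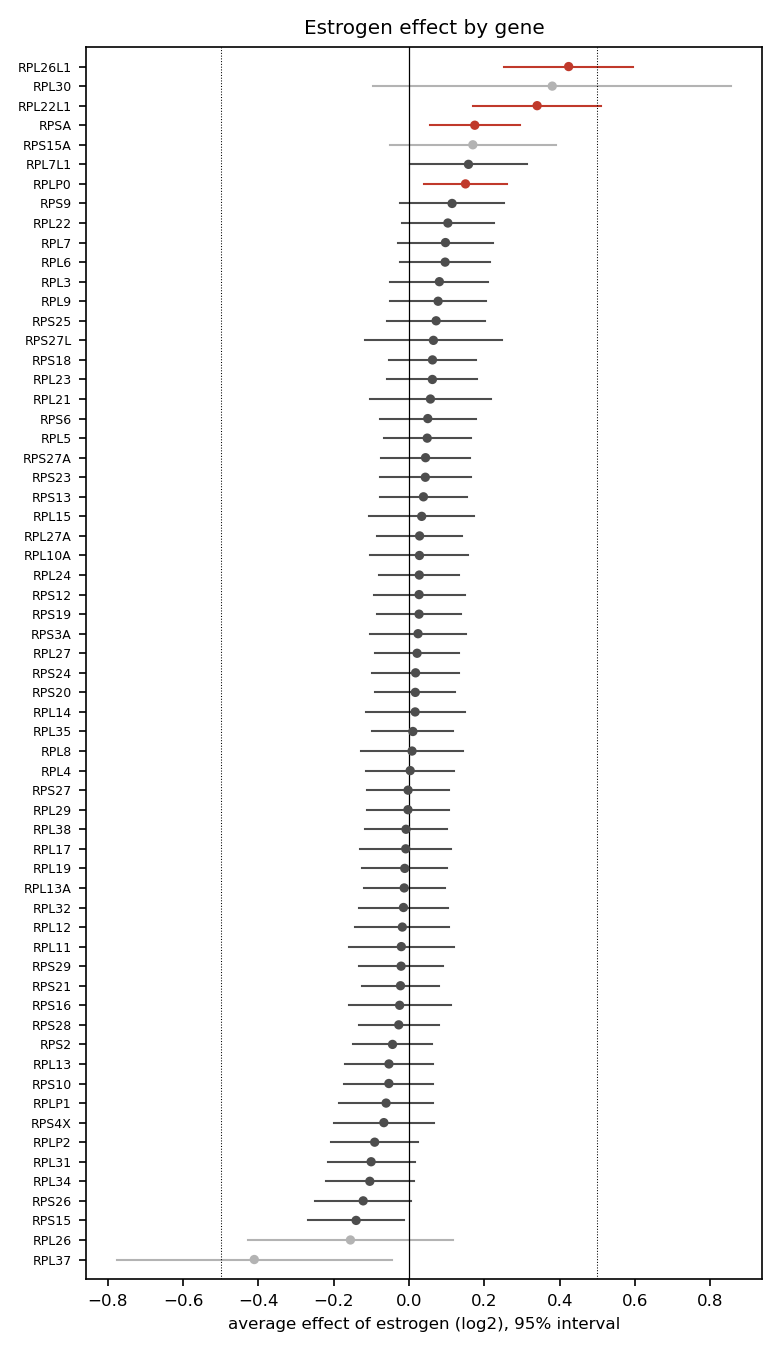
Average effect of estrogen (log2) with its 95% interval for each of the 62 genes, red where called and grey for the 4 dim probe sets; dotted lines mark a change of 0.5. The red points are RPL26L1, RPL22L1, RPSA and RPLP0, and 58 intervals lie between the dotted lines.

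Of the 3 stalk genes RPLP0 was the one called with estrogen. That is 33.3%, in a list too short to set against the 17.5% of the array called higher. RPLP1 and RPLP2, which dimerize on RPLP0, had average estrogen effects of -0.06 ± 0.06 and -0.09 ± 0.06, neither called (adjusted p = 0.463 and 0.212), beside the rise of RPLP0 under the same treatment. The 4 values of RPLP2 in BE were 12.08, 12.06, 12.19 and 12.15, and in B they were 12.22, 12.36, 12.21 and 12.44. BE thus lay below B in all animals. The estrogen effect on RPLP2 was -0.19 ± 0.11 in that pair, 0.07 ± 0.11 in BEP against BP, -0.05 ± 0.11 in HE against H and -0.20 ± 0.11 in HEP against HP, none called. RPLP0 was higher with estrogen in each of these pairs, by 0.11 to 0.17. Under haloperidol RPLP2 differed by 0.14 ± 0.06 (adjusted p = 0.131) and RPLP1 by -0.01 ± 0.06. Differences between the stalk genes themselves were not tested.

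Relatives of ribosomal proteins with an L in the name are encoded by separate genes, and 5 of 9 listed ones were measured. RPL26L1 and RPL22L1 rose with estrogen, as described, which is 40% of a short list beside 17.5% of the array. RPL7L1, a relative of RPL7 that is known from the assembly of the large subunit, had an average effect of 0.16 ± 0.08 (adjusted p = 0.109). RPS27L, a p53-responsive relative of RPS27, had 0.06 ± 0.09 (adjusted p = 0.603). RPL36AL, which the naming rule of the family leaves out, had 0.15 ± 0.07 (adjusted p = 0.0954), with group means from 12.31 in HP to 12.59 in HE. The parent genes were bright where measured well: RPL22 had 0.10 ± 0.06 (adjusted p = 0.183), RPL7 0.10 ± 0.06 (adjusted p = 0.226) and RPS27 0.00 ± 0.05. RPL26, at -0.16 ± 0.13 (adjusted p = 0.383), has a dim probe set, so the pair RPL26 and RPL26L1 is compared poorly. Near-identical copies and processed pseudogenes exist for this family, and which of them a probe set binds was not tested.

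Of the 8 listed genes that serve as references for normalization, RPLP0 was the one called with estrogen (12.5%, beside 17.5% of the array called higher). RPL4 (0.00 ± 0.06), RPL13A (-0.01 ± 0.05), RPL19 (-0.01 ± 0.06), RPL32 (-0.01 ± 0.06), RPS13 (0.04 ± 0.06), RPS18 (0.06 ± 0.06) and RPS23 (0.04 ± 0.06) were not. Their 95% intervals for the estrogen effect lay between -0.13 and 0.18. The range of the 9 group means was 0.075 for RPL13A, 0.127 for RPS13, 0.158 for RPL19, 0.162 for RPS23, 0.183 for RPL32, 0.189 for RPL4, 0.194 for RPS18 and 0.278 for RPLP0. RPS6, the substrate of the S6 kinases, had an estrogen effect of 0.05 ± 0.06, and RPS27A, made as a fusion with ubiquitin, of 0.04 ± 0.06. RPL41 was not analysed here.

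Estrogen was also tested within each pair of groups. In HE against H, the pair with the most calls on the array (9.81% of probe sets higher, 10.1% lower), 2 of 62 members rose and 0 fell. There 3 members (4.84%) had an unadjusted p under 0.05, against 33.3% of all probe sets. RPL26L1 was 11.25, 10.86, 10.69 and 10.93 in the 4 H animals and 11.59, 11.43, 11.27 and 11.61 in the 4 HE animals. All HE values exceeded all H values, and the change was 0.54 ± 0.17 (adjusted p = 0.0216). RPL7L1 was 10.998, 10.87, 11.03 and 10.87 in H and 11.31, 11.30, 11.61 and 11.40 in HE, again without overlap, with a change of 0.46 ± 0.15 (adjusted p = 0.0315). Both calls rest on few animals, since neither gene was called without H B or without HE D. RPL7L1 alone was called without HE A or H C, and RPL26L1 alone without HE C or H D.

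In HEP against HP 0 of 62 members were called by limma, against 8.84% of probe sets called higher and 7.70% lower. In that pair 4 members (6.45%) and 31.8% of all probe sets had an unadjusted p under 0.05. RPL26L1 differed by 0.45 ± 0.17 (adjusted p = 0.064), a size near that in HE against H. Under bromocriptine 0 of 62 were called in BE against B (array 2.88% higher, 0.895% lower). The same count of 0 held for BEP against BP (array 0.587% higher, 0.197% lower). In BE against B 1 member (1.61%) had an unadjusted p under 0.05, beside 16.7% of the array. For BEP against BP it was 3 members (4.84%), beside 16.4%. There RPL22L1 was 11.34, 11.81, 11.90 and 11.57 in BP and 12.10, 12.11, 12.33 and 12.25 in BEP. The groups did not overlap, and the change of 0.55 ± 0.17 had an adjusted p of 0.0922.

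Whether estrogen acted differently under haloperidol than under bromocriptine was tested as an interaction. By limma 0 of the 62 genes were called in either direction, against 3.87% of probe sets called higher and 3.62% lower. Of the members 0 had an unadjusted p under 0.05, against 24.6% of all probe sets. The median interaction of the family was -0.02, and its 95% intervals lay within 0.5 of 0 for 56 genes. RPL7L1 was called with estrogen in HE against H alone of the pairs, and that difference between pairs is not shown by this test. The interaction of estrogen with progesterone gave 0 calls among the members with 0 at an unadjusted p under 0.05 (array 0.164% higher, 0.0866% lower, and 10.4% at that unadjusted p). That of progesterone with haloperidol also gave 0 and 0, and the array gave 0% higher and 0% lower, with 4.67% at that unadjusted p.

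Haloperidol in place of bromocriptine, averaged over estrogen and progesterone, moved the brightest probe set of no member past the threshold. By limma 0 of 62 were called, while 3.85% of probe sets were called higher and 3.13% lower. An unadjusted p under 0.05 was found for 4 members (6.45%) and for 22.3% of all probe sets. The median change was 0.03, with 45 of the 62 above 0, and it was -0.01 over all probe sets. Above 0 were 99 of the 226 other probe sets with a mean of at least 12 and 9895 of all 20792. Members share arrays and normalization, so these counts are a description. RPL7L1 had the smallest p, at 0.21 ± 0.08 (adjusted p = 0.0864), and was called without BP A. A trend of the variance on signal with robust moderation called 2 members higher, RPLP2 and RPS29.

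Progesterone gave 0 calls among the members, with 0 at an unadjusted p under 0.05, and its calls on the array were few (0.077% higher, 0.0144% lower). On the array 4.9% of probe sets had such an unadjusted p. The median change of the family was 0.00, and 61 of 62 intervals lay within 0.5 of 0.

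Ovariectomy with bromocriptine, B against sham, gave 0 calls among the 62 genes and 2 at an unadjusted p under 0.05, RPL7L1 (-0.35 ± 0.15, adjusted p = 0.191) and RPL37 (-0.75 ± 0.36, adjusted p = 0.239). The array had 1.56% of probe sets called higher and 2.62% lower. It had 19.4% at an unadjusted p under 0.05, against 3.23% of the family. The median change was -0.04 with 20 of the 62 genes above 0, and 0.03 over all probe sets. Above 0 were 115 of the 226 other probe sets with a mean of at least 12 and 10941 of all 20792. Of the 4 genes that rose with estrogen, RPL26L1 differed here by -0.11 ± 0.17, RPL22L1 by -0.17 ± 0.17, RPSA by -0.09 ± 0.12 and RPLP0 by 0.10 ± 0.11. B is among the groups behind the estrogen effect too, so the comparisons share its animals.

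**Figure D4:**
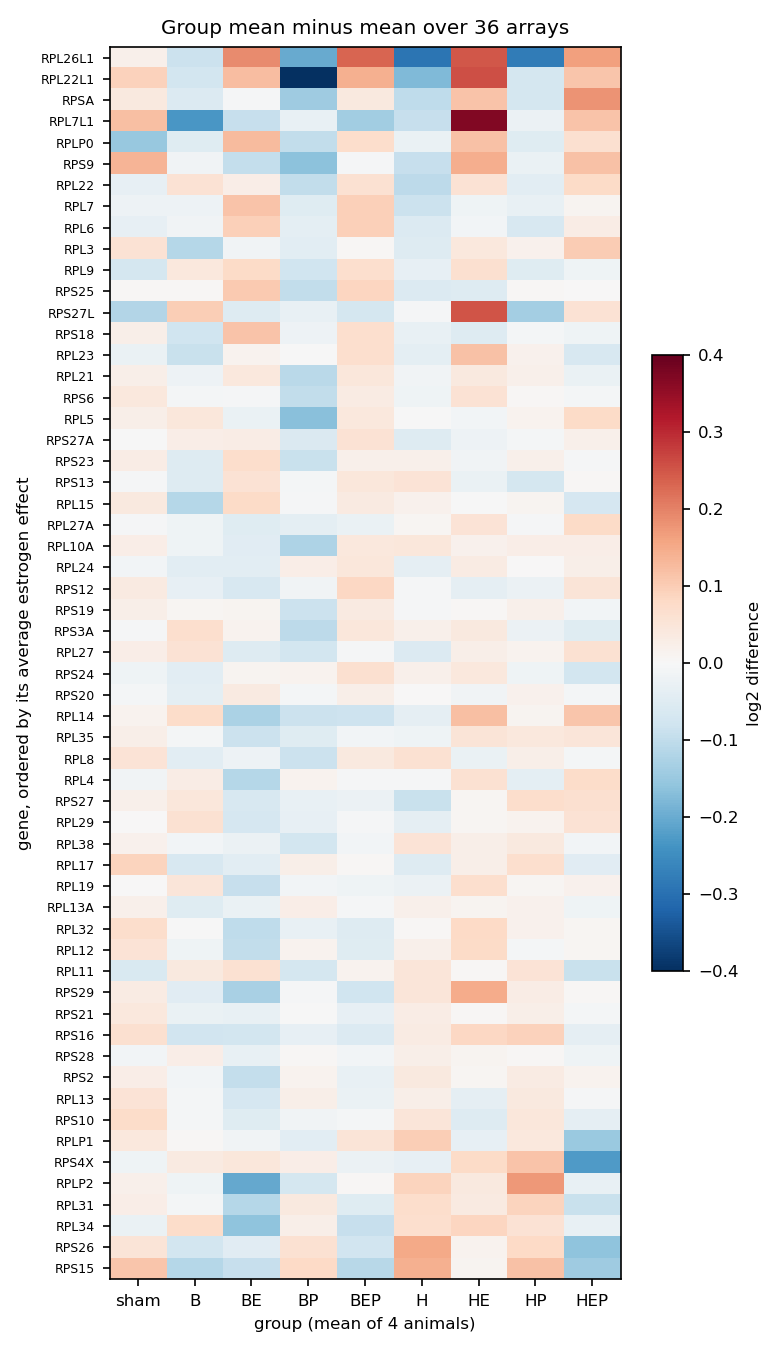
Group mean minus the mean over 36 arrays (log2, colour limit 0.4) for the 58 members with a mean above 8, ordered by their average estrogen effect. RPL26L1 and RPL22L1 are higher in the estrogen groups, and most other rows stay near 0.

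Small differences between groups were not spread evenly over the 9. BE was the lowest group for 16 members and the highest for 11. BP was the lowest for 17, B for 10, and HE was the highest for 16. Such counts were not made for other probe sets, and members share arrays, so they are a description. The mean of the family, after each gene was centred over the arrays, lay between -0.02 and 0.05 in all groups but BP (-0.04), each with a standard deviation of 0.016 to 0.097. Single animals ran from -0.138 in HEP C to 0.106 in HE C, with -0.120 in B A and -0.124 in BP A. The 3 lowest animals hence belong to 3 different groups.

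Members varied together only loosely. Over the 36 arrays the median correlation of the 1653 pairs among the 58 members with a mean above 8 was 0.20, and 0.23 after group means were removed. Pairs of the 226 other bright probe sets had a median of 0.09. These pairs share arrays and normalization, so the values are a description. The genes closest to the mean of all other members were RPS19 (r = 0.73) and RPS6 (0.72), both of the small subunit, and RPL17 (0.70) of the large one. RPL26 (-0.02), RPL24 (0.03) and RPS12 (0.06) followed it least, of which RPL26 has a dim probe set and RPL24 and RPS12 bright ones. The highest pair, named after its value was seen, was RPS15 with RPS26 at 0.88, and the lowest was RPL22 with RPS26 at -0.67. RPL26L1 and RPSA also ran against RPS26, at -0.60 and -0.59.

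Second probe sets exist for 24 of the genes, 29 in all, and 16 of them lie over 2 below the brightest of their gene. For estrogen 3 of them were called higher and 2 lower, none of them on a gene called by its brightest probe set. These were found on RPS27A (0.63 ± 0.11, mean 8.85), RPL38 (0.45 ± 0.11, mean 11.14) and RPL6 (0.26 ± 0.08, mean 11.997), and both lower ones on RPS28 (-0.38 ± 0.07, mean 12.09, and -0.49 ± 0.17, mean 5.48). The brightest probe sets of these genes had effects of 0.04, -0.01, 0.10 and -0.03. The second probe set of RPLP0 was called lower in B against sham (-1.43, adjusted p = 0.007) and that of RPS27A with haloperidol (-0.49 ± 0.11, adjusted p = 0.0068), whereas the brightest ones were not called. The median range of the group means was 0.20 for the 11 second probe sets within 1 of the brightest and 0.87 for the 16 over 2 below it. Which transcripts or copies the dimmer ones bind was not tested.

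Genes that build the ribosome were called in several comparisons. Of 55 measured ribosome biogenesis genes 16 rose and 4 fell with estrogen, with a median of 0.13. NPM3, a nucleolar histone chaperone, rose by 1.19 ± 0.17 (adjusted p = 2.7e-06), XPO1, the export receptor of subunits, by 1.03 ± 0.29, NIP7 by 0.94 ± 0.20 and GAR1 of the H/ACA particles by 0.87 ± 0.15. RRP9 (-0.62 ± 0.13), TBL3 (-0.60 ± 0.13) and SBDS (-0.58 ± 0.11) fell; these 3 were named after their values were seen. With haloperidol 16 rose and 0 fell, with a median of 0.19, among them NPM3 (0.83 ± 0.17), the pseudouridine synthase DKC1 (0.64 ± 0.14), MRTO4 (0.62 ± 0.09) and PPAN (0.56 ± 0.16). The interaction of estrogen with haloperidol was higher for 10 and lower for 0, and B was below sham for 5, including NPM3 (-1.22 ± 0.33). In shares, 29.1% rose and 7.27% fell with estrogen, beside 17.5% and 17.6% of the array. With haloperidol 29.1% rose, beside 3.85%. The interaction was higher for 18.2%, beside 3.87%, and B was below sham for 9.09%, beside 2.62%.

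NPM3 shows the pattern by animal. In H it was 7.93, 7.88, 7.26 and 7.55, and in HE it was 10.09, 9.97, 10.13 and 10.57. The groups lay far apart, whereas in BP the animal BP A had 9.90 beside 7.61, 7.35 and 7.58.

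Mitochondrial ribosomal proteins are encoded in the nucleus too but serve another ribosome. Of 58 measured, 14 rose and 3 fell with estrogen (median 0.09). These are 24.1% and 5.17%, beside 17.5% and 17.6% of the array. MRPS25 rose by 0.73 ± 0.19, MRPL13 and MRPS28 each by 0.62 (± 0.14 and ± 0.15), and MRPS2 fell by 0.73 ± 0.17. With haloperidol 4 rose, MRPS34 (0.46 ± 0.14), MRPS12 (0.45 ± 0.12), MRPL40 (0.35 ± 0.11) and MRPS7 (0.33 ± 0.10), and 0 fell. In the interaction of estrogen with haloperidol 15 were called higher and 0 lower. That is 25.9% higher, beside 3.87% of the array, and the 4 raised by haloperidol are 6.90%, beside 3.85%.

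**Figure D5:**
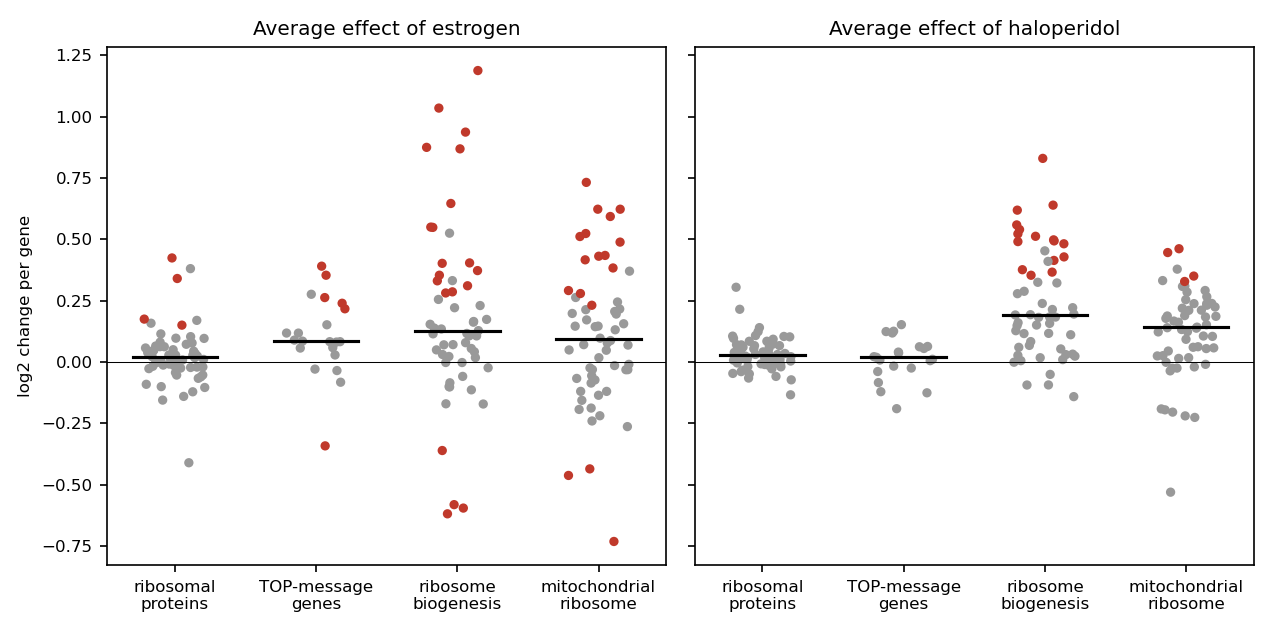
Average effect of estrogen and of haloperidol (log2) for each gene of 4 lists, red where called; TOP-message genes are those with a terminal oligopyrimidine tract. The 62 ribosomal proteins lie near 0 with 4 red points for estrogen and 0 for haloperidol, and ribosome biogenesis genes have 20 and 16.

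A further list held translation factors and other genes, among them NPM1 and NAP1L1. Their messages carry a terminal oligopyrimidine tract like those of the ribosomal proteins. Of the 21 measured, 5 were called higher and 1 lower with estrogen (median 0.08). These are 23.8% and 4.76%, beside 17.5% and 17.6% of the array. EIF3M, a subunit of the initiation factor that binds the small subunit, rose by 0.39 ± 0.13, the nucleolar chaperone NPM1 by 0.35 ± 0.09 and PABPC4 by 0.26 ± 0.09. The elongation factor EEF1A1 fell by 0.34 ± 0.11. With haloperidol 0 of the 21 were called by limma and 1 had an unadjusted p under 0.05. Of 10 ribosome-bound proteins and ubiquitin fusions 2 rose with estrogen, SEC61G of the translocon (0.50 ± 0.09) and SERBP1 (0.32 ± 0.09). That is 20%, near the 17.5% of the array called higher.

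Of 18 genes of RNA polymerases I and III, which transcribe ribosomal RNA and other short RNAs, 3 rose and 4 fell with estrogen, 16.7% and 22.2%, near the 17.5% and 17.6% of the array. MAF1, a repressor of polymerase III, fell by 0.80 ± 0.13. GTF3A, the 5S factor, fell by 0.58 ± 0.11 and BRF2 by 0.50 ± 0.11, while POLR3D rose by 0.54 ± 0.17. POLR2L (0.38 ± 0.10) and POLR1C (0.35 ± 0.10) rose with haloperidol. Among 21 regulators of mTORC1 and MYC 6 rose and 4 fell with estrogen, 28.6% and 19.0%. LAMTOR2 rose by 0.66 ± 0.14, the cap-binding protein EIF4E by 0.65 ± 0.18 and MYC by 0.65 ± 0.18, and EIF4EBP2, an inhibitor of EIF4E, fell by 0.54 ± 0.08. MYC rose with haloperidol too, by 0.66 ± 0.18 (adjusted p = 0.0246), and SESN1 fell by 0.38 ± 0.11.

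Markers of other cells moved with estrogen, and in whole tissue fewer cells of a type and less RNA per cell cannot be told apart. All 19 cell cycle genes rose, and their mean level was 7.65 to 9.26 in animals with estrogen and 5.80 to 8.96 in ovariectomized animals without it. Of the muscle markers 12 of 15 fell and 0 rose (mean level 4.93 to 5.61 with and 5.15 to 12.83 without estrogen). Of 10 adipocyte markers 7 fell and 0 rose (7.98 to 10.11 with and 8.63 to 10.81 without), as did 5 of 8 endothelial, 4 of 10 macrophage and 2 of 8 lymphocyte markers. Of 13 luminal markers 3 rose and 0 fell, with levels of 9.88 to 10.95 and 9.00 to 11.04. Of 9 fibroblast and matrix markers 4 rose and 1 fell, and of 4 basal epithelial markers 2 rose and 0 fell. The falls were 80% of muscle, 70% of adipocyte, 62.5% of endothelial, 40% of macrophage and 25% of lymphocyte markers, beside 17.6% of the array. The rises were 100% of cell cycle, 50% of basal, 44.4% of fibroblast and 23.1% of luminal markers, beside 17.5%. The lymphocyte and luminal shares thus lay near those of the array, and the lists are short. RMA values have no true zero, so none of these markers could be shown to be absent. Their part in the rise of RPL26L1, RPL22L1, RPSA and RPLP0 was not tested. Without the 2 arrays B A and BP A the changes of the first 3 were 0.45, 0.30 and 0.18, all called. With haloperidol all 7 milk genes rose while no ribosomal protein gene was called by its brightest probe set.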

How the data were processed

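Total RNA of 36 mammary glands was hybridized to 1 porcine Affymetrix array each. The authors summarized probe sets with RMA, per the submitters' processing notes, with no version named there. The log base of the deposited values, which ran from 1.55 to 13.74, is not stated, and they were read as log2. Arrays have no read depth, so the number of animals limits the precision. The design text gives each treatment to 4 pigs, so arrays were taken as separate animals. No further normalization was done.

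Of 20792 probe sets 9149 had 1 gene symbol, 178 several and 11465 none here, from an older platform annotation. All 62 members had their gene ID in the RefSeq table (assembly Sscrofa11.1), none with another current symbol. Sequences and positions were not used here.

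A limma 3.58.1 model in R 4.3.3 with 1 mean for each of 9 groups was fitted to all 36 arrays (27 residual and 4.16 prior degrees of freedom), for 11 comparisons, two-sided, with no adjustment across comparisons. It was tested on simulated data. Members, lists and tests were chosen with earlier results of these data known. Named genes are the called members (up to 10 in each direction for the average effects and B against sham, up to 3 elsewhere), the 3 highest and 3 lowest by mean, by range and by correlation, the stalk, paralog and reference lists with RPSA, RPS6, RPS27A and RPL41, and up to 4 called genes from each other list for estrogen and haloperidol. Other genes were named after their values were seen. The alternatives were a floor on dim probe sets, quantile normalization once more, centring on array medians, weights per array, robust moderation with a trend of variance on signal, the animal letter as a block, 1 probe set per gene, the mean of all probe sets of a gene and leaving out each array. Leaving out B A and BP A together was added after seeing the data. Python 3.11.15, pandas 2.3.3 and matplotlib 3.10.9 made tables and figures.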

Additional observations from a re-analysis of the deposited data

Results flagged for a closer look

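The mean of the ribosomal protein genes, each centred over the 36 arrays, was -0.138 in animal HEP C and 0.034 to 0.069 in the other 3 animals of HEP. The gap to the nearest of them took up 0.8297 of the range of the group, just above the limit of Dixon's test for 4 values. Among the 54 groups of 4 values examined in this way, chance flags about 1 in 20. Over the 58 members with a mean above 8 the value of this animal was -0.101, and those of the other 3 were 0.038 to 0.043. The others thus lay closer together there, and this animal stood apart as well. Dixon's test was not run on these values. Its mean level of milk genes, 8.21, was the lowest of the animals with haloperidol, and its mean over 19 cell cycle genes, 9.26, the highest of all; their part in the low value was not tested. Without this array the same 4 members were called higher with estrogen and 0 lower.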

How the results depend on the processing

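The 4 genes called with estrogen kept their direction under every alternative, and direction was followed for these 4 alone. The median change of the family moved by less than 0.056, the spread between animals, in all 11 comparisons. The largest median was 0.045, in HE against H, so a median could change sign within that limit. Dropping dim probe sets moved no count of calls, and centring on array medians moved 1, by 1 gene. Nothing in the labels says that a letter links animals. Of 144 same-letter pairs of arrays 52 had a residual correlation above 0.1 (median 0.05, range -0.41 to 0.46), as had 101 of 432 different-letter pairs (median -0.02). Best correlated with their own letter were 10 of 36 arrays, near the 1 in 4 that chance gives with 4 letters of equal number. Same-letter pairs had the higher median and the larger share above 0.1, so these values do not settle whether letters link animals. The main fit did not take letters as pairs. With the letter as a replicate block 1 member was called in the interaction of estrogen with haloperidol (RPL30) and 1 in HEP against HP (RPL26L1), and RPL30 was added to the estrogen genes and to those higher in HE against H, with no call lost. With a variance trend and robust moderation estrogen lowered 4 (RPL31, RPL34, RPS15, RPS26), haloperidol raised 2, HE exceeded H for 4, and HEP exceeded HP for 2 and fell below it for 2. With array weights 1 member was lower in B than in sham (RPL7L1), 3 were lower with estrogen (RPL37, RPS15, RPS26), 3 higher with haloperidol (RPL26, RPL7L1, RPLP2), 1 higher in BEP than BP (RPL22L1) and 2 higher in HEP than HP (RPL26L1, RPL30). With 1 probe set per gene in the fit, estrogen lowered 1 (RPS15), and HEP exceeded HP for 1 (RPL26L1) and fell below it for 1 (RPS4X). The mean of all probe sets of a gene gave 7 higher with estrogen (RPL38, RPL6 and RPS27A in addition) and 1 lower (RPS28), 1 lower with haloperidol (RPS27A) and 1 lower in B than in sham (RPLP0). Without arrays B A and BP A 2 fell with estrogen (RPL37, RPS15) and 1 rose with haloperidol (RPL7L1). RPLP0 lost its call after a second quantile normalization (0.13, adjusted p = 0.0597). Leaving out 1 array at a time gave 3 to 4 members higher and 0 to 2 lower with estrogen, the 2 being RPL37 and RPS15 without BP A, and RPL37 alone without B A, BP C or HP D. It gave 0 to 1 higher with haloperidol, 0 to 3 higher in HE against H and 0 to 1 higher in HEP against HP, the 1 being RPL26L1 without HP A. The cause of these shifts was not tested. Members near the top of the scale limit what the arrays can show.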
